A study of Mus musculus with 4 samples.

Results

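Proprotein convertases are secretory pathway proteases of the subtilisin family that cut precursor proteins after pairs of basic residues. RNA levels of 7 of them (Pcsk1, Pcsk2, Pcsk4, Pcsk5, Pcsk6, Pcsk7 and Furin), of 2 genes for proteins that bind them (Scg5 and Pcsk1n) and of the antisense transcript Pcsk2os1 were compared between the 2 kinds of pituitary cells that make pro-opiomelanocortin (POMC). The members were taken by gene symbol. Their values were not part of that rule, but the list was chosen with earlier results of these data known. All 10 were found, as 10 of the 24063 genes and 15 of the 33072 RefSeq transcripts measured.

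The cells came from mice of strain C57B6 carrying the POMC-EGFP reporter. Corticotropes were GFP-positive cells of the anterior lobe and melanotropes were GFP-positive cells of the intermediate lobe, so the separation of the cell types rested on dissection and the sort took cells in which the Pomc-driven reporter was on. Each group had 2 libraries, made from total RNA after ribosomal depletion and read as 50 bp pairs. No treatment, age or sex was given in the labels, and neither was the number of mice pooled nor whether replicates were separate sorts. The p-values therefore rest on the spread between these libraries, which may be technical, and in part on that of other genes of like level.

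Levels are in FPKM (fragments per kilobase of transcript, normalised for depth), rescaled by 1 factor per library so that the trimmed mean difference over genes was 0. As deposited, the values of all transcripts had nearly the same sum in each library (729482 to 729485). The rescaling matters here because Pomc took a larger share of the melanotrope libraries (30955 ± 460 FPKM in corticotropes against 79116 ± 5079 FPKM in melanotropes, SD, n = 2), which lowers every other deposited value. On the deposited scale the median of all genes lay at -0.42 (log2). The low FPKM values implied 97607571 and 187234673 reads on the longest transcripts in the corticotrope libraries, and 145997522 and 149622495 in the melanotrope libraries. Differences were tested with limma on log2(FPKM + 1) and are given as melanotrope minus corticotrope on that scale, where changes of low genes come out too small. Genes with at least 1 FPKM in at least 2 libraries were tested, and an adjusted p (Benjamini-Hochberg over all 13046 genes tested) under 0.05 was called.

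The libraries carried the markers of their labels and also those of neighbouring cells. All 4 melanotrope markers (Pax7, Drd2, Oacyl and Gulo) were higher in melanotropes, with summed levels of 105 and 133 FPKM in the corticotrope libraries against 816 and 905 FPKM in the melanotrope libraries. All 4 corticotrope markers (Crhr1, Avpr1b, Nr3c1 and Neurod1) were lower in melanotropes, with sums of 204 and 214 FPKM against 9.78 and 11.0 FPKM. Of 13 markers of other anterior lobe lineages (Gh, Prl, Cga and others), 13 were lower in melanotropes, and their sums were 5638 and 5871 FPKM in corticotropes against 14.8 and 62.9 FPKM in melanotropes. Only Ghrhr of these was listed at 0, in melanotrope replicate 1. Markers of the posterior lobe and glia summed to 16.5 and 20.2 FPKM in corticotropes and to 39.9 and 45.5 FPKM in melanotropes, with 3 of the 3 tested of 9 (Slc1a3, Rax and Sox2) higher in melanotropes. Of the untested, Gfap was at most 0.391 FPKM in any library, with a higher mean in melanotropes (0.0846 against 0.367 FPKM). Higher means there were also seen for Lhx2 (0.00846 against 0.840 FPKM), Nkx2-1 (0.0211 against 0.478 FPKM) and, with overlap, S100b (0.161 against 0.199 FPKM). The astrocyte markers Aqp4 (0.878 against 0.616 FPKM) and Aldh1l1 (0.970 against 0.631 FPKM) were at lower means in melanotropes. Aldh1l1 was called lower on the deposited scale (log2 difference -0.48, adjusted p = 0.00689 by limma), where 66.8% of all genes tested were. Vascular and blood markers summed to 21.6 and 28.2 FPKM in corticotropes against 5.81 and 6.60 FPKM in melanotropes, and 2 of the 4 tested of 8 were lower. Several of these marker genes were under 1 FPKM in both libraries of 1 group and passed the filter only through the other. Through corticotropes these were Avpr1b, Neurod1, Tshb, Pou1f1, Dlk1, Foxl2, Gata2, Nr5a1, Gnrhr, Ghrhr, Hba-a1 and Pecam1. Through melanotropes they were Rax and Cd68. The marker counts therefore describe the libraries, and nothing is read from them against the shares of all genes called (18.9% higher and 18.3% lower). In bulk RNA of this kind, fewer cells of a type and less RNA per cell cannot be told apart.

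As background, POMC is matured in steps along the regulated secretory pathway. Prohormone convertase 1/3, the product of Pcsk1, cuts POMC to ACTH and beta-lipotropin, which is the main end point in corticotropes. Prohormone convertase 2, the product of Pcsk2, cuts further to the shorter peptides from which alpha-MSH and beta-endorphin come, the classical products of melanotropes. The protein 7B2, encoded by Scg5, is needed for the zymogen of convertase 2 to become active, and proSAAS, encoded by Pcsk1n, can inhibit convertase 1/3. Furin and the products of Pcsk5, Pcsk6 and Pcsk7 act mainly along the constitutive secretory pathway, on growth factors, receptors and adhesion proteins.

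The promoters of Pcsk1 and Pcsk2 are shown first, since these genes moved in opposite directions. The 250 bases before the RefSeq start were read from the RefSeq promoter table (GRCm38, the same build as mm10), which held windows for 9 of the 10 genes (10 windows, 2 of them for Furin). The sequences are written 5′ to 3′ on the plus strand, on which both genes lie. In Pcsk1 (chr13:75089607-75089825) capitals mark the letters TGACG or their reverse complement, the short form of the cAMP response element TGACGTCA. The last 31 bases of its window, which GENCODE M21 places in the first exon, are not printed. In Pcsk2 (chr2:143545883-143546132) capitals mark the GC box GGGCGG on either strand.
Pcsk1: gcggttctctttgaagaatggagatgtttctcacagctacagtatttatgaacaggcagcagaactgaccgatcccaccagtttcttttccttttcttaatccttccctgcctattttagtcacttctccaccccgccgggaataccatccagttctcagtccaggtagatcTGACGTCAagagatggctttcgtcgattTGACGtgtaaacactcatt
Pcsk2: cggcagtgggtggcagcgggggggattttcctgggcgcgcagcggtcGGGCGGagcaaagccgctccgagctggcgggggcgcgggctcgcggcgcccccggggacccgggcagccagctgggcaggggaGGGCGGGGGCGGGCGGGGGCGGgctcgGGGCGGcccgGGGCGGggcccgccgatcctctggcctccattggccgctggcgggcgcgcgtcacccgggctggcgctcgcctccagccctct

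The 2 windows differed in composition and in these motifs. The Pcsk1 window held 46.8% G and C, below the median of 52.4% over 32536 RefSeq windows of this length, and the Pcsk2 window held 82.4%, above that of 99.4% of them. Pcsk1 was the only one of the 9 genes with the full element TGACGTCA, which 1.56% of all windows hold on either strand. The element starts at -78 from the RefSeq start and is its own reverse complement, so it counts as 2 overlapping short forms, at -78 and -75, and a further short form starts at -50. The short form TGACG was present in 17.9% of all windows and in windows of 4 of the 9 genes, which besides Pcsk1 were Pcsk2 (at -34), Scg5 (at -175) and Furin (at -126, in 1 of its 2 windows). The Pcsk2 window held 7 GC boxes, which may overlap each other, and the Pcsk1 window held 0. At least 1 GC box was present in 33.0% of all windows. The RefSeq start used for Pcsk1 lies 130 bases upstream of the start of the transcript in the expression table. These matches describe letters in the windows and not sites bound in these cells.

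Of the 10 genes, 8 passed the filter on low values, and Pcsk4 and Pcsk5 did not. Of the 8 tested, 3 were higher in melanotropes (Pcsk2, Pcsk2os1 and Scg5), against 18.9% of all genes tested. Lower in melanotropes were 2 of the 8 (Pcsk1 and Pcsk6), against 18.3% of all genes tested. The median log2 difference of the 8 was 0.21, and that of all genes 0.00. Pcsk6 passed the filter only through the corticotrope libraries, where it is high, so these counts describe the members and nothing is read from them against the shares of all genes. Lower calls came to 1 without either corticotrope library, since Pcsk6 then failed the filter. On the deposited scale 9 members were tested, 2 were called higher (against 7.14% of all genes) and 4 lower (against 66.8%).

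**Figure D1:**
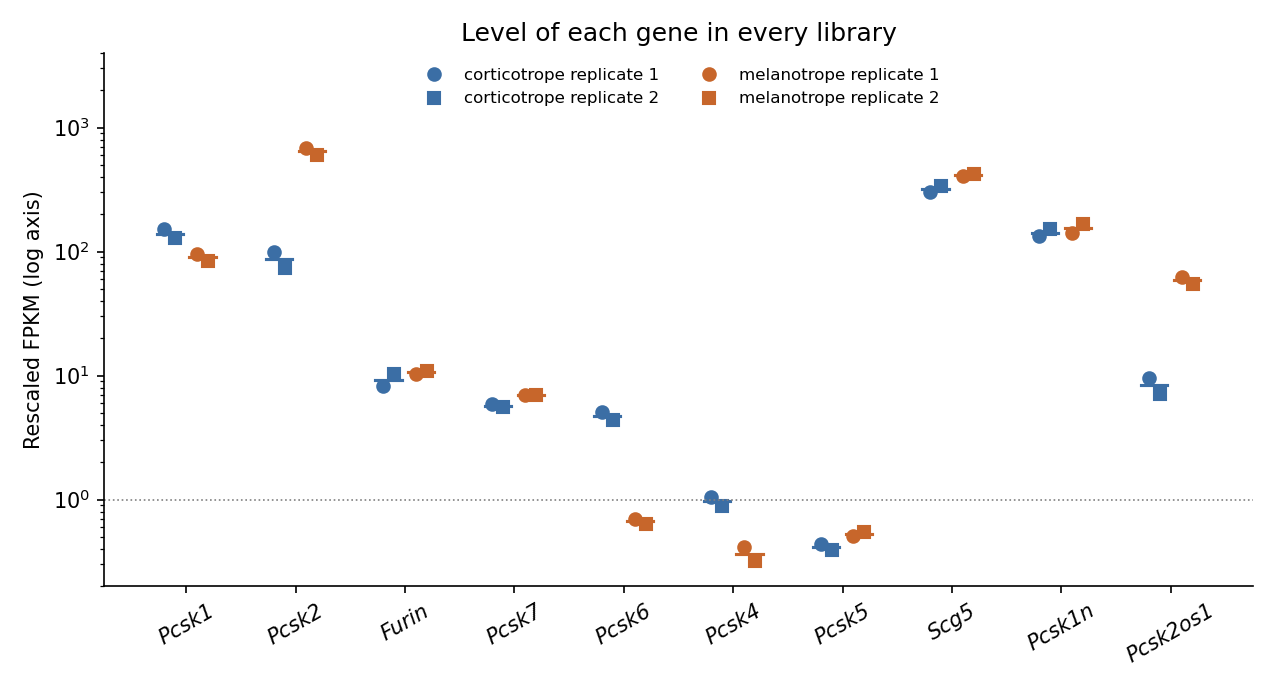
Levels of the 10 genes in each library, in rescaled FPKM on a log axis, with corticotropes and melanotropes in separate colours, circles for replicate 1, squares for replicate 2, short bars for the group means and a dotted line at 1 FPKM. The points of Pcsk2 and Pcsk2os1 lie higher in both melanotrope libraries, those of Pcsk1, Pcsk6 and Pcsk4 lie lower, and those of Pcsk1n overlap.

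Pcsk2 rose most among the convertases. Its gene (chr2:143546133-143816282, plus strand, mm10) was measured at 100.04 and 73.3 FPKM in the corticotrope libraries and at 687 and 600 FPKM in the melanotrope libraries. Both melanotrope libraries lay far above both corticotrope libraries, and replicate 1 was the higher of each pair. The means were 86.7 ± 18.9 FPKM and 643 ± 61.5 FPKM (SD, n = 2), a 7.42-fold difference. The log2 difference was 2.89 (SE 0.17) with an adjusted p of 1.63e-04 by limma, and it was called in 16 of 16 other settings. Depth is not limiting for this gene, with 65820 and 92271 implied reads in corticotropes and 621634 and 543597 in melanotropes.

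The level of Pcsk2 in the corticotrope libraries stood beside a like level of melanotrope markers. Pcsk2 in corticotropes was at 13.5% of its melanotrope level. The melanotrope markers in corticotropes were at 13.2% (Oacyl), 14.8% (Gulo), 15.5% (Pax7) and 15.7% (Drd2) of theirs. Pcsk2 divided by Oacyl, an acyltransferase-like gene used here as a melanotrope marker, was 1.08 and 1.10 in the corticotrope libraries and 1.05 and 1.08 in the melanotrope libraries. Divided by Pax7, the transcription factor that specifies melanotropes, Pcsk2 was 10.5 and 9.24 in corticotropes against 11.9 and 10.9 in melanotropes. The part of melanotrope RNA in the corticotrope level of Pcsk2 was not tested.

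Pcsk1 was lower in melanotropes but remained abundant there. The gene (chr13:75089987-75132498, plus strand) was at 151 and 128 FPKM in corticotropes and at 96.1 and 84.1 FPKM in melanotropes. Both melanotrope libraries were below both corticotrope libraries, and again replicate 1 was the higher of each pair. The means of 139.6 ± 16.2 and 90.1 ± 8.48 FPKM (SD, n = 2) put melanotropes at 0.646 of the corticotrope level. The log2 difference was -0.62 (SE 0.12), adjusted p = 0.00962 by limma. It was called in 16 of 16 other settings, between -1.10 and -0.51. Melanotrope libraries held corticotrope markers at 1.21% (Neurod1) to 5.72% (Crhr1) of their corticotrope level, and Pcsk1 at 64.6% of its own. The part of corticotrope RNA in the melanotrope level of Pcsk1 was not tested. The summed markers of other anterior lobe lineages were higher in the corticotrope libraries, and their part in the corticotrope level of Pcsk1 was not tested either.

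The opposite changes of Pcsk1 and Pcsk2 changed which convertase RNA was the more abundant within a library. The ratio of Pcsk2 to Pcsk1, which does not depend on the rescaling, was 0.663 and 0.572 in the corticotrope libraries and 7.14 and 7.13 in the melanotrope libraries. The log2 ratio differed by 3.53 (SE 0.11, n = 2 per group), an 11.6-fold difference. The exact permutation test, two-sided, gave p = 0.333, which is the smallest value that 2 libraries against 2 can give. In corticotropes Pcsk1 was the more abundant in both libraries, and in melanotropes Pcsk2 was. The part of melanotrope RNA in the corticotrope ratios was not tested.

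**Figure D2:**
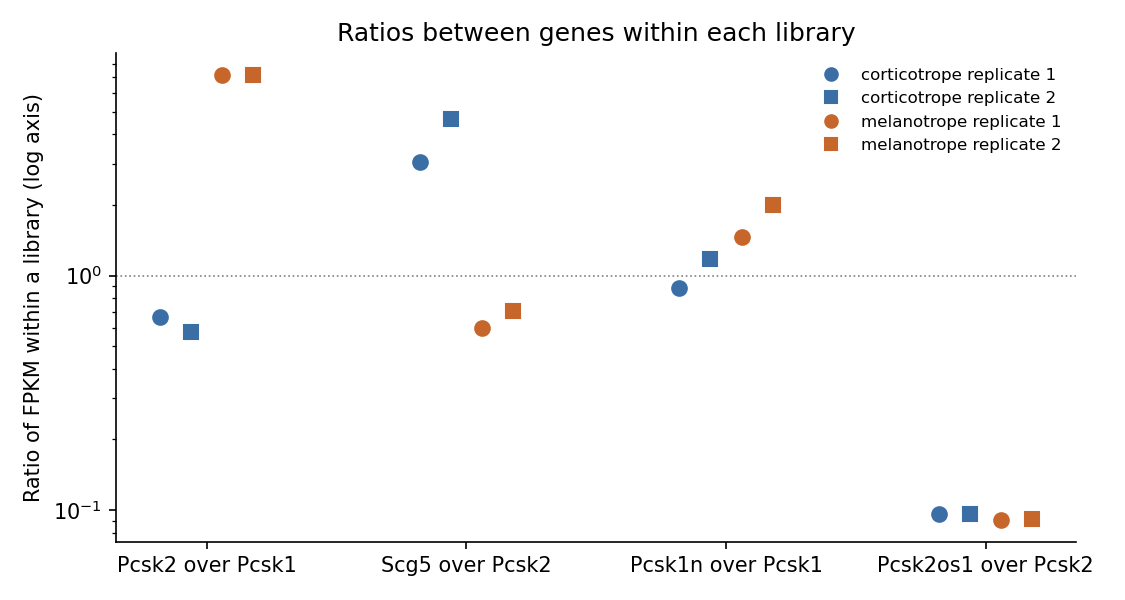
Ratios of RNA levels within each library, on a log axis, for pairs of members, with corticotrope and melanotrope libraries in separate colours, circles for replicate 1, squares for replicate 2 and a dotted line at a ratio of 1. Pcsk2 over Pcsk1 lies at 0.572 and 0.663 in corticotropes and at 7.13 and 7.14 in melanotropes, while Pcsk2os1 over Pcsk2 stays between 0.0910 and 0.0962.

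Summed over the 7 convertases, RNA was at 272 and 223 FPKM in corticotropes and at 802 and 703 FPKM in melanotropes, a 3.04-fold difference of means (247 ± 34.5 against 752 ± 69.6 FPKM, SD, n = 2). Pcsk1 gave 55.6% and 57.5% of that sum in the corticotrope libraries against 11.99% and 11.96% in the melanotrope libraries. Pcsk2 gave 36.8% and 32.9% in corticotropes against 85.7% and 85.3% in melanotropes. The other 5 convertases together gave 7.61% and 9.65% in corticotropes and 2.35% and 2.76% in melanotropes. In the libraries of both cell types the pair of neuroendocrine convertases therefore made up most of the convertase RNA. The order of the pair was reversed. Pcsk2 in the corticotrope libraries stood at 13.5% of its melanotrope level, near the 13.2% (Oacyl) to 15.7% (Drd2) of the melanotrope markers. The part of melanotrope RNA in its corticotrope share was not tested.

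**Figure D3:**
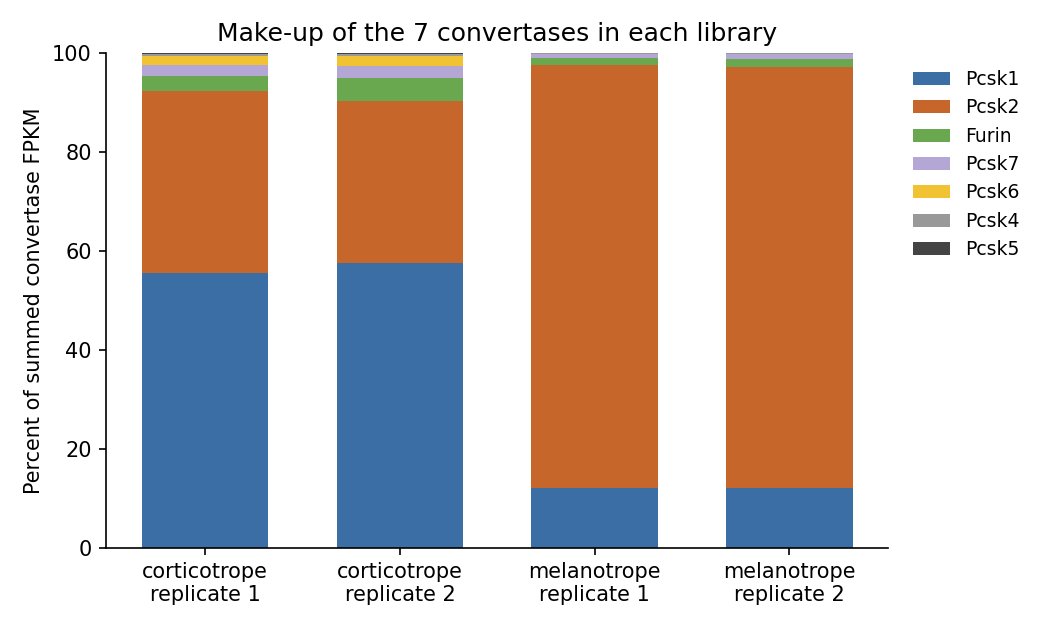
Share of the summed FPKM of the 7 convertases taken by each, in percent, with 1 stacked bar per library. Pcsk1 takes 55.6% and 57.5% in corticotropes and Pcsk2 takes 85.7% and 85.3% in melanotropes, and the other 5 together stay under 10% in each library.

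Of the binding proteins, Scg5 (chr2:113776313-113829091, minus strand) was the more abundant. It was at 304 and 340 FPKM in corticotropes and at 409 and 425 FPKM in melanotropes. The groups did not overlap, and means were 322 ± 25.6 and 417 ± 11.6 FPKM (SD, n = 2), a 1.30-fold difference. The log2 difference was 0.37 (SE 0.11), adjusted p = 0.0448 by limma, close to the threshold. The call held in 8 of 16 other settings and was lost without any one of the 4 libraries, with adjusted p between 0.113 and 0.293. Without rescaling, the log2 difference was -0.11 with adjusted p = 0.288. Set against the convertase that it binds, Scg5 fell from 3.04 and 4.64 times Pcsk2 in the corticotrope libraries to 0.595 and 0.709 times in the melanotrope libraries. That log2 ratio differed by -2.53 (SE 0.33, exact permutation p = 0.333, the smallest possible). It rests on the corticotrope level of Pcsk2, in which the part of melanotrope RNA was not tested.

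Pcsk1n (chrX:7919822-7924410, plus strand), the proSAAS gene, gave no call. Corticotrope libraries held 133 and 151 FPKM of it, melanotrope libraries 141 and 168 FPKM, so that the groups overlapped. The log2 difference was 0.12 (SE 0.12, 95% confidence interval -0.18 to 0.41), adjusted p = 0.494 by limma. It was -0.36 on the deposited scale with adjusted p = 0.0132, so its direction depends on the rescaling. Because Pcsk1 was lower in melanotropes, Pcsk1n relative to Pcsk1 was 0.883 and 1.18 in corticotropes against 1.47 and 2.00 in melanotropes. The groups of ratios did not overlap, with a log2 difference of 0.75 (SE 0.30, exact permutation p = 0.333, the smallest possible).

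Among the widely expressed convertases, Pcsk6, which encodes PACE4, stood out by a lower level in melanotropes. The gene (chr7:65862136-66050386, plus strand) was at 5.08 and 4.39 FPKM in corticotropes and at 0.698 and 0.635 FPKM in melanotropes. Neither pair overlapped the other, and the means of 4.73 ± 0.488 and 0.666 ± 0.0441 FPKM (SD, n = 2) gave a ratio of 0.141. The log2 difference was -1.78 (SE 0.10), adjusted p = 1.54e-04 by limma. Because it passed the filter only through the group where it is high, this p is no independent support. In the fit of all genes with no filter, the log2 difference was -1.78 and the adjusted p 0.00298 by limma. Its size moved with the pseudocount, from -2.65 at 0.1 to -0.78 at 5. It rested on 3020 and 4992 implied reads in corticotropes, and on 571 and 520 in melanotropes. The summed markers of other anterior lobe lineages were higher in the same corticotrope libraries, and their part in the level of Pcsk6 was not tested. Both RefSeq transcripts of Pcsk6 were called lower, at 4.72 ± 0.479 against 0.668 ± 0.0444 FPKM and at 4.70 ± 0.461 against 0.668 ± 0.0444 FPKM (SD, n = 2), and they share most of their exons and therefore reads.

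Furin and Pcsk7 were measured between 5.59 and 10.9 FPKM in the 4 libraries. Furin (chr7:80389194-80402762, minus strand) was at 8.25 and 10.3 FPKM in corticotropes and at 10.3 and 10.9 FPKM in melanotropes. Its log2 difference was 0.18 (SE 0.11, 95% confidence interval -0.09 to 0.46), adjusted p = 0.253 by limma, and was called in 0 of 16 other settings. Its 2 transcripts, which begin at different starts, gave nearly the same values, with log2 differences of 0.19 and 0.19. For Furin the difference without rescaling was -0.25, adjusted p = 0.0664.

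Pcsk7 (chr9:45906569-45929722, plus strand) was at 5.87 and 5.59 FPKM in corticotropes and at 6.96 and 6.97 FPKM in melanotropes. The groups did not overlap, and the log2 difference was 0.24 (SE 0.08, 95% confidence interval 0.05 to 0.44), but the adjusted p of 0.0568 by limma missed the threshold. When each transcript was fitted on its own, the 3 Pcsk7 transcripts were called, with adjusted p of 0.0497, 0.0462 and 0.0459 by limma. They are 3 readings of much the same reads and not 3 replicates. For Pcsk7 the difference without rescaling was -0.17, adjusted p = 0.143. Exons of the neighbouring genes Rnf214 and Tagln overlap 10.7% and 2.43% of its GENCODE exon bases on the opposite strand.

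Over all transcripts, 12 of the 15 member transcripts passed the filter. Of these, 6 were higher in melanotropes (those of Pcsk2, Pcsk2os1, Scg5 and the 3 of Pcsk7), against 19.5% of all 19843 transcripts tested. Lower were 3 (Pcsk1 and the 2 of Pcsk6), against 18.7%. Without any one of the 4 libraries, or with no filter, the number higher was 2, and on the deposited scale 2 were higher and 5 lower. Without either corticotrope library the number lower was 1.

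The 2 convertases under the filter were near the lower end of the measured range. Pcsk4 (chr10:80321283-80329473, minus strand), best known from germ cells, was at 1.04 and 0.891 FPKM in corticotropes and at 0.412 and 0.318 FPKM in melanotropes, from 152 to 592 implied reads per library. The groups did not overlap, and without the filter the log2 difference was -0.53, adjusted p = 0.0123 by limma. Pcsk5 (chr19:17432832-17837632, minus strand) was at 0.438 and 0.389 FPKM in corticotropes and at 0.503 and 0.550 FPKM in melanotropes, from 405 to 699 implied reads. Without the filter its log2 difference was 0.11, adjusted p = 0.140 by limma. Its shorter transcript (5760 bases, against 6635 for the longer) was at 0.497 ± 0.0428 FPKM in corticotropes and 0.551 ± 0.0172 FPKM in melanotropes (SD, n = 2).

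**Figure D4:**
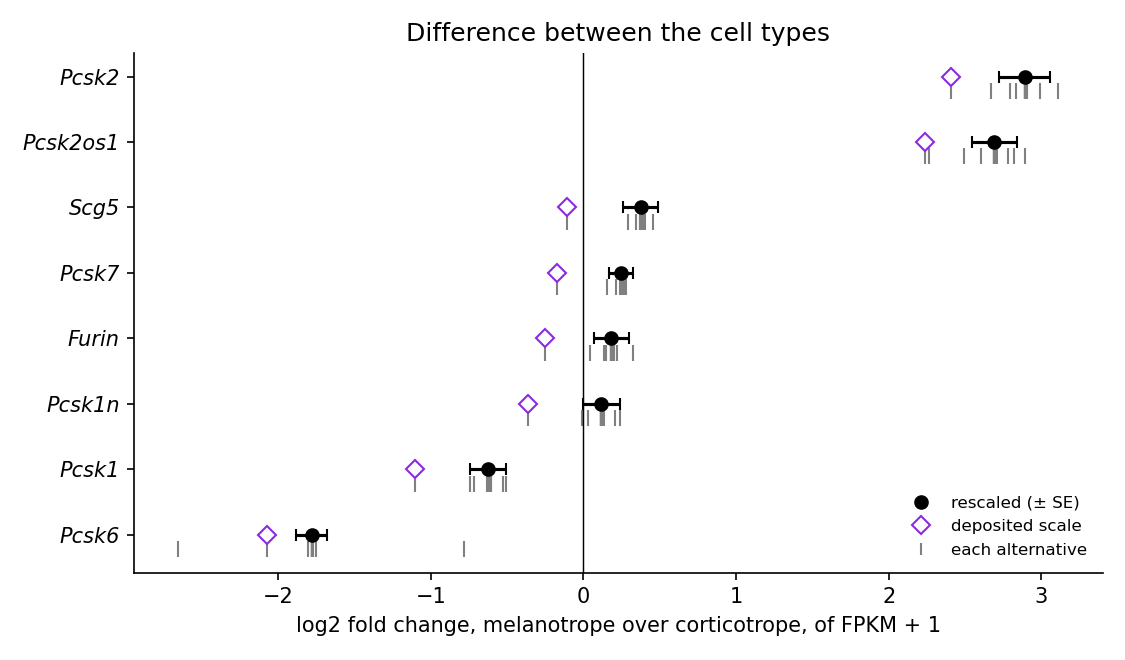
Difference of each tested member, melanotrope minus corticotrope on log2(FPKM + 1), for rescaled values (filled points, bars for 1 standard error) and values as deposited (open diamonds), with a grey tick for each other setting. Pcsk2 and Pcsk2os1 lie at 2.89 and 2.69 and Pcsk6 at -1.78 after rescaling, and Scg5, Pcsk7, Furin and Pcsk1n lie above 0 on the rescaled scale and below 0 on the deposited one.

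In order of level per length in corticotropes, Scg5 came first (322 FPKM), then Pcsk1n (142), Pcsk1 (139.6) and Pcsk2 (86.7), followed by Furin (9.26), Pcsk2os1 (8.33), Pcsk7 (5.73), Pcsk6 (4.73), Pcsk4 (0.967) and Pcsk5 (0.414). Of neighbours in that order, Pcsk1n and Pcsk1 overlapped between libraries, and so did Furin and Pcsk2os1. In melanotropes Pcsk2 came first (643 FPKM), then Scg5 (417), Pcsk1n (154), Pcsk1 (90.1) and Pcsk2os1 (58.9), followed by Furin (10.6), Pcsk7 (6.97), Pcsk6 (0.666), Pcsk5 (0.526) and Pcsk4 (0.365). No neighbours in the melanotrope order overlapped between the 2 libraries.

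Pcsk2os1 is a noncoding transcript read from the minus strand across the start of Pcsk2 (chr2:143535476-143547837). It was at 9.62 and 7.04 FPKM in corticotropes and at 62.5 and 55.2 FPKM in melanotropes. Both melanotrope libraries lay far above the corticotrope ones, with means of 8.33 ± 1.82 and 58.9 ± 5.15 FPKM (SD, n = 2), a 7.06-fold difference. The log2 difference was 2.69 (SE 0.15), adjusted p = 1.29e-04 by limma.

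Pcsk2os1 kept a nearly fixed proportion to Pcsk2, at 0.0962 and 0.0961 in the corticotrope libraries and 0.0910 and 0.0921 in the melanotrope libraries. In GENCODE M21 the first exons of both genes share 260 bases on opposite strands (chr2:143546405-143546664), which are 5.50% of the Pcsk2 exon bases and 6.14% of those of Pcsk2os1. The sources used here do not say if the authors counted by strand, and without strand the reads of the shared bases cannot be told apart. If Pcsk2 reads covered its exons evenly and all reads in the shared bases were counted for both genes, Pcsk2 alone would put 7.43 and 5.21 FPKM on Pcsk2os1 in corticotropes and 36.9 and 30.2 FPKM in melanotropes, on the deposited scale. Those values are 63.9% and 64.0% of the deposited Pcsk2os1 level in corticotropes and 67.5% and 66.8% in melanotropes. The level and the difference of Pcsk2os1 are therefore uncertain, and its call is not separate from that of Pcsk2.

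**Figure D5:**
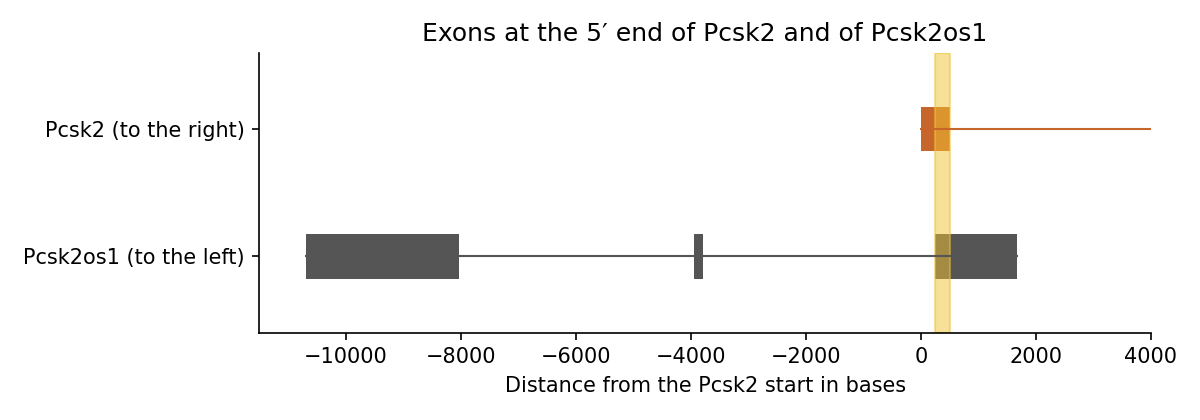
Map of the start of the Pcsk2 gene, with exons of Pcsk2 (plus strand) and Pcsk2os1 (minus strand) by distance from the Pcsk2 start. The first exons of both genes share 260 bases, drawn as a shaded band.

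Smaller overlaps touch other members. Exons of Pcsk1n and Eras share 135 bases on opposite strands, 6.16% of the Pcsk1n exon bases. Exons of Pcsk6 and the gene model Gm45213 share 156 bases on the same strand, 3.54% of the Pcsk6 exon bases. Pcsk2 also shares 99 exon bases (2.10%) with a further antisense gene, Pcsk2os2.

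Genes with the profile most like that of Pcsk2 over the 4 libraries were sought among 6324 genes that reached 10 FPKM in 1 of the cell types, by Euclidean distance between centred log2 values. The nearest was Oacyl (distance 0.0504), at 92.7 and 66.9 FPKM in corticotropes and 657 and 553 FPKM in melanotropes. Next came Pcsk2os1 (0.201), Bcan (0.210), Pcsk2os2 (0.247) and Megf11 (0.276). Bcan, which encodes the proteoglycan brevican, was at 0.959 and 0.467 FPKM in corticotropes and 11.2 and 8.90 FPKM in melanotropes. Pcsk2os2, which overlaps Pcsk2, was at 5.56 and 3.80 FPKM in corticotropes against 37.1 and 31.3 FPKM in melanotropes. For Pcsk1 the nearest were Rnd1 (0.0719), Slc12a5 (0.0720), Kctd2 (0.0830), Akap8l (0.0934) and Lsm14a (0.0965). Rnd1 was at 12.4 and 9.94 FPKM in corticotropes and 7.26 and 5.99 FPKM in melanotropes. These distances rest on 4 libraries.

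Enzymes that act after the convertases moved in both directions. Of 11 trimming and amidating enzymes, 11 were tested, 6 were higher in melanotropes and 3 lower (against 18.9% and 18.3% of all genes tested), with a median log2 difference of 0.32. Pam, which amidates peptides such as alpha-MSH at their C terminus, rose from 227 ± 13.0 to 378 ± 16.5 FPKM (SD, n = 2; log2 difference 0.73, adjusted p = 0.00332 by limma). The others with the smallest adjusted p by limma were the aminopeptidase Rnpep (11.2 against 23.4 FPKM, adjusted p = 4.09e-04), the endothelin-converting enzyme Ece2 (7.65 against 12.9 FPKM, adjusted p = 0.00148) and the carboxypeptidase Cpz (0.445 against 1.66 FPKM, adjusted p = 0.00155). Lower in melanotropes were Ece1 (47.2 against 31.9 FPKM, adjusted p = 0.00489), Prcp, which encodes a carboxypeptidase that cuts after proline and can inactivate alpha-MSH (1.85 against 0.760 FPKM, adjusted p = 0.00516), and Qpct (5.47 against 3.03 FPKM, adjusted p = 0.00521). Cpe, the carboxypeptidase that removes the basic residues left by the convertases, was at 433 ± 37.2 and 536 ± 8.60 FPKM (SD, n = 2), adjusted p = 0.0955 by limma. Cpz passed the filter only through melanotropes and Prcp only through corticotropes, each the group where it is high. Without rescaling, 2 enzymes of this list were higher (Rnpep and Cpz) and 3 lower, against 7.14% and 66.8% of all genes, and Pam (log2 difference 0.25, adjusted p = 0.0755) and Ece2 (0.25, adjusted p = 0.0610) lost their calls by limma.

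Of 15 granins and neuropeptide precursors, whose products are cut by convertases, 9 were tested, 2 were higher and 1 was lower (against 18.9% and 18.3% of all genes tested), with a median log2 difference of 0.16. Chga, the chromogranin A gene, rose from 343 ± 35.01 to 1537 ± 167 FPKM (SD, n = 2; log2 difference 2.16, adjusted p = 3.08e-04 by limma). Pdyn, the prodynorphin gene, rose from 7.82 to 13.8 FPKM (adjusted p = 8.74e-04). Cartpt, the precursor of the CART peptides, fell from 5.30 ± 1.05 to 0.396 ± 0.0268 FPKM (log2 difference -2.16, adjusted p = 2.02e-04 by limma), and passed the filter only through corticotropes, where it is high. Pomc itself, the main substrate, gave an adjusted p of 0.223 by limma, with no overlap between the groups (30630 and 31281 FPKM in corticotropes, 75525 and 82708 FPKM in melanotropes). Its log2 difference was 1.35 with an SE of 0.77, against a median SE of 0.09 over all genes. That SE draws on the trend of variance with level as well as on these libraries. The missing call therefore does not show equal levels. The deposited scale gave 2 genes of this list higher and 4 lower, against 7.14% and 66.8% of all genes.

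Of 19 genes whose proteins are cut by furin-type convertases, 15 were tested, 4 were higher and 3 lower (against 18.9% and 18.3% of all genes tested), with a median log2 difference of 0.01. Bdnf, a neurotrophin, rose from 1.37 to 7.48 FPKM (adjusted p = 2.02e-04 by limma). Igf1r rose from 6.91 to 14.5 FPKM, and Atp6ap1 (78.9 to 102 FPKM) and Lrp1 (5.82 to 8.08 FPKM) were also called. The latter pair lost the call and turned direction without rescaling, at -0.11 for Atp6ap1 (adjusted p = 0.193 by limma) and -0.0061 for Lrp1 (adjusted p = 0.969 by limma). The integrin subunit gene Itgav fell from 13.3 to 6.90 FPKM (adjusted p = 6.87e-04 by limma), and the growth factor genes Vegfc (1.17 to 0.221 FPKM) and Pdgfa (6.02 to 3.93 FPKM) were also called lower. Vegfc passed the filter only through corticotropes, where it is high. On the deposited scale 2 were higher and 8 lower, against 7.14% and 66.8% of all genes.

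Of 4 other subtilisin-like proteases 3 were tested, and Mbtps1, the Golgi site-1 protease, was lower in melanotropes (54.3 ± 2.11 against 42.0 ± 2.64 FPKM, SD, n = 2; log2 difference -0.36, adjusted p = 0.0186 by limma). Of the 3, 0 were higher and 1 was lower, against 18.9% and 18.3% of all genes tested. The median of the 3 was 0.17. On the deposited scale 0 were higher and 2 lower, against 7.14% and 66.8% of all genes. The list of inhibitors and serpins of the secretory pathway held 5 distinct genes, since 2 of its 6 symbols (Cst8 and the older Cres) name the same gene, and 3 were tested. Serpini1, the neuroserpin gene, was higher in melanotropes (12.03 against 16.4 FPKM, adjusted p = 0.00619 by limma), and the median of the 3 was -0.51. That made 1 higher and 0 lower in this list, against 18.9% and 18.3% of all genes tested. On the deposited scale 0 of this list were higher and 2 lower, against 7.14% and 66.8% of all genes. Serpini1 was at -0.03 there (adjusted p = 0.748 by limma).

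The authors' deposited table gave the same direction for each tested member. It rests on the same 4 libraries, so the shared direction is no independent support. The p-values and FDR in that table came from a step run on FPKM and not on read counts. Their size is therefore not read as strength of evidence. The FDR there was under 0.05 for 4 members, with log2 fold changes in the authors' deposited table of 2.90 for Pcsk2 (FDR 4.88e-90), 2.78 for Pcsk2os1 (FDR 2.67e-16), -0.63 for Pcsk1 (FDR 0.00240) and 0.37 for Scg5 (FDR 0.00538). Pcsk6 had a log2 fold change of -2.13 in the authors' deposited table with a p-value of 0.0386 and an FDR of 0.719, and was not among those called there. For Pcsk1n, Furin, Pcsk7, Pcsk4 and Pcsk5 the FDR in the authors' deposited table was 1.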

How the data were processed

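Per the file headers, the authors computed FPKM for RefSeq transcripts with HOMER from exon counts on mm10. Their log2 fold changes, p-values and FDR were deposited by the authors from HOMER's differential expression step run on the FPKM table. TopHat, edgeR and GRCm38 are also named in the submitters' processing notes; for versions and the strand setting, nothing is given in the sources used here. A deposited fold column went unused.

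The longest transcript stood for each gene. The deposited FPKM were divided by factors from an unweighted trimmed mean of M values (30% of M and 5% of A trimmed) over genes with at least 1 FPKM in at least 2 of the 4 libraries. Values of log2(FPKM + 1) were fitted with limma 3.58.1 in R 4.3.3 (moderated test with trend). This draws the variance of each gene toward that of genes of like level, with 2 residual and 3.80 prior degrees of freedom. On simulated data, the fit recovered 100% of 100 genes with a log2 change of 1 and 100% of 100 with a log2 change of 2 among 13046 genes for melanotropes against corticotropes, with 15 false calls. The simulated noise was normal, at the SD of the fit itself. Changes were put only into genes of higher level than Pcsk6 and Pcsk7, and none under 1 was simulated. This recovery therefore does not extend to low genes or to small changes such as that of Scg5. Reads were implied from the step between low FPKM values, and 89.5% to 97.2% of these lay within 0.1 step of a whole read. FPKM carry 2 decimals, so low values are rounded.

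The members, the 5 pathway lists and the 6 marker lists were chosen with earlier results of these data known. All members were named, with up to 4 called genes per direction and list by adjusted p and the 5 nearest profiles of Pcsk1 and Pcsk2. Other pseudocounts, filters, scalings, transcripts and a replicate block were tried, and each library was left out in turn.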

Additional observations from a re-analysis of the deposited data

How the results depend on the processing

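Pcsk2, Pcsk2os1 and Pcsk1 kept direction and call in all 16 other settings, and Pcsk6 in the 14 where it passed the filter; without either corticotrope library it failed the filter. On the deposited scale, the log2 differences of Pcsk1n (-0.36), Pcsk7 (-0.17), Furin (-0.25) and Scg5 (-0.11) turned negative, with the Pcsk1n value called; leaving out 1 library moved Pcsk1n between -0.00914 (without melanotrope replicate 2) and 0.24. That scale gave 4 members lower, 2 member transcripts higher and 5 lower, 2 subtilisin-like proteases lower, 2 trimming enzymes higher, 4 granins and precursors lower, 2 furin-type substrates higher and 8 lower, 0 inhibitors higher and 2 lower, and 939 genes higher and 8787 lower overall; the filter follows the scaling, so 13153 genes, 9 members (Pcsk4 added, and called lower) and 13 member transcripts were tested there. Scg5 lost its call with median-of-ratios factors (adjusted p = 0.0549 by limma), with no filter (0.119), with factors from every gene above 0 (0.0574, an alternative added after seeing the data) and without any library. Pcsk7 was called with median-of-ratios factors (0.0476) and with the replicate block (0.0173). With no filter, 2 granins and precursors were lower and 2 member transcripts higher, and with the transcript of highest mean 1 inhibitor was lower. A pseudocount of 5 gave a log2 difference in the Pcsk2 to Pcsk1 ratio of 3.43. With the replicate block, 1 subtilisin-like protease was higher, 4 granins and precursors were higher, 5 furin-type substrates lower and 2 inhibitors lower. Same-numbered libraries deviated together across 13046 genes (correlation 0.525). The labels give only the shared number and do not say whether these libraries were paired. The main fit treats them as unpaired. Leaving out 1 library left 1 to 2 members lower, 2 member transcripts higher and 1 to 3 lower, 0 to 1 subtilisin-like proteases lower, 3 to 5 trimming enzymes higher, 2 to 4 granins and precursors higher and 0 to 1 lower, 2 to 3 furin-type substrates higher, and 0 to 1 inhibitors lower; the lone library is then assumed to vary like the other group. Over all genes, lower calls fell to 1438, 1517 and 1537 without corticotrope replicate 1, corticotrope replicate 2 and melanotrope replicate 1, and higher calls to 1466 and 1358 without melanotrope replicates 1 and 2. Implied reads bound the precision of Pcsk4 and Pcsk5, and 2 libraries a group bound that of the spread. The call of Pcsk2os1 is not separate from that of Pcsk2. Pcsk6 passed the main filter only through corticotropes, where it is high, so its calls are no independent support.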
